A study of Mus musculus with 6 samples.

Results

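The collagen chain genes encode the alpha chains of the collagens, and 38 of them were measured among 20401 genes in whole mammary tumours of the mouse. They were taken by symbol, as every gene with a single annotated symbol made of Col, a number, a and a number, except Col17a1, and 76 probe sets represented them. Of these genes, 11 encode fibrillar chains, 6 type IV chains of basement membrane, 3 type VI chains of beaded filaments and 18 other chains. Col6a4, Col6a5, Col6a6, Col21a1, Col26a1 and Col28a1 were not analysed here.

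The study compared 3 Bmp4 tumours, grown from 4T1.2 cells carrying pBabepuro with murine Bmp4, with 3 control tumours, grown from 4T1.2 cells carrying the pBabepuro vector alone. 4T1.2 is a mouse mammary carcinoma line, pBabepuro is a retroviral vector, and Bmp4 encodes bone morphogenetic protein 4, a secreted growth factor related to the TGF-beta proteins. All 6 tumours grew from 100000 cells placed into the inguinal mammary fat pad (the 4th) of Balb/c females aged 6 to 8 weeks, and were excised at about 0.3 g. Total RNA was hybridised to 1 Affymetrix 3' expression array per tumour. Whether the tumours of a group grew in separate mice is not in the labels, so the p-values cover the spread of these tumours only. The tumours were whole, so the arrays hold RNA of both carcinoma cells and host stroma. The host mice were not described as altered.

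Collagens are trimers of alpha chains wound into a triple helix. Fibrillar collagens are secreted as procollagens, cleaved at their ends and cross-linked into the fibres that give connective tissue its tensile strength. Type IV collagen forms the sheet-like network of basement membranes, type VI collagen forms beaded microfilaments around cells, and the fibril-associated collagens decorate fibre surfaces. In mammary tumours, fibroblasts of the stroma are known as a main source of the fibrillar chains, whereas endothelial cells, pericytes and epithelial cells make basement membrane chains.

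Values are log2 expression of a probe set, and a difference is the Bmp4 mean less the control mean in log2 units. Unless another is named, the probe set printed for a gene is its brightest one on average over all 6 arrays, control tumour 1 included. Apart from that choice, levels of different probe sets are not compared. The array of control tumour 1 stood apart. Over all probe sets its correlation with each other array was 0.66 to 0.72 (Pearson's r), whereas pairs of the other arrays reached 0.96 to 0.99, and its values were compressed, with an interquartile range of 2.25 where the others had 3.36 to 3.77. The collagen genes are therefore compared without that array (5 arrays) and with it (6 arrays). Bmp4 itself had 1 probe set, which read 5.04, 4.94 and 5.51 in Bmp4 tumours 1, 2 and 3, against 6.48, 5.93 and 4.99 in control tumours 1, 2 and 3. These groups overlapped, and the sources used here do not say whether the probe set matches the transcript of the vector, so the groups rest on their labels.

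Without control tumour 1, the collagen genes lay mostly below control in the Bmp4 tumours, by small amounts. The difference was negative for 32 of 38 genes and positive for 6, with a median of -0.19, whereas the median over all 20401 genes was -0.04 and 55.7% of them were negative. The most negative differences were those of Col7a1 (-1.39), Col1a1 (-1.32), Col24a1 (-1.30), Col5a3 (-1.02) and Col6a2 (-1.001). The most positive was that of Col6a1, at 0.29. No collagen gene reached an adjusted p under 0.05 in limma, whose calls over all genes were 0.0196% higher and 0% lower, and the lowest adjusted p of a collagen gene was 0.0947, for Col24a1. That limma adjusted p was 0.0449 when arrays were centred on their 75th percentile, where 7 of all 20401 genes were called lower. With limma's trend and robust options it was 0.0314, and 2 of all 20401 genes were called lower. With control tumour 3 also left out, control tumour 2 stood alone, so only differences are given. They were -1.72 for Col1a1, -1.20 for Col5a3, -1.24 for Col24a1 and -1.56 for Col7a1. In the main fit without control tumour 1, 7 collagen genes were lower at an unadjusted p under 0.05 and 0 higher, beside 5.67% of all genes lower and 9.07% higher. These 7 genes, 18.4% of the 38, were Col24a1, Col7a1, Col5a3, Col1a1, Col6a2, Col27a1 and Col11a1. The values of the Bmp4 tumours all lay below both control values for 14 collagen genes (36.8%) and above them for 0, beside 18.3% and 15.9% of all genes.

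Another scaling of the arrays moved the median of all genes by as much as -0.11 without control tumour 1, when arrays were centred on their 75th percentile. Counted against the median of all genes, which centring cannot alter, 32 of the 38 collagen genes lay below it and 6 above it, also after quantile normalization again. With all 6 arrays the scalings moved that median by -0.30 to 0.18, and 24 collagen genes lay below it, or 25 after quantile normalization again. Without control tumour 1, genes with low signal leaned to negative differences in general. Of all genes below the median mean signal of 6.61 (a mean over all 6 arrays), 70.5% were negative. Of the 17 collagen genes below it, 16 were negative. Above that signal 40.9% of all genes and 16 of the 21 collagen genes were negative.

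With all 6 arrays the collagen genes spread more widely, from -1.10 for Col1a1 to 1.83 for Col5a2. The difference was negative for 25 and positive for 13, with a median of -0.40, beside -0.12 for all genes. Calls at an adjusted p under 0.05 numbered 0% of all genes in either direction, and the lowest adjusted p of a collagen gene was 0.496. At an unadjusted p under 0.05, Col1a1 alone was lower and 0 collagen genes were higher, beside 1.16% of all genes lower and 3.74% higher. The groups did not overlap for 9 collagen genes, all lower in the Bmp4 tumours, beside 13.6% of all genes lower and 12.9% higher. The plot of tumour values shows each gene in each tumour, and the plot of differences shows both comparisons.

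**Figure D1:**
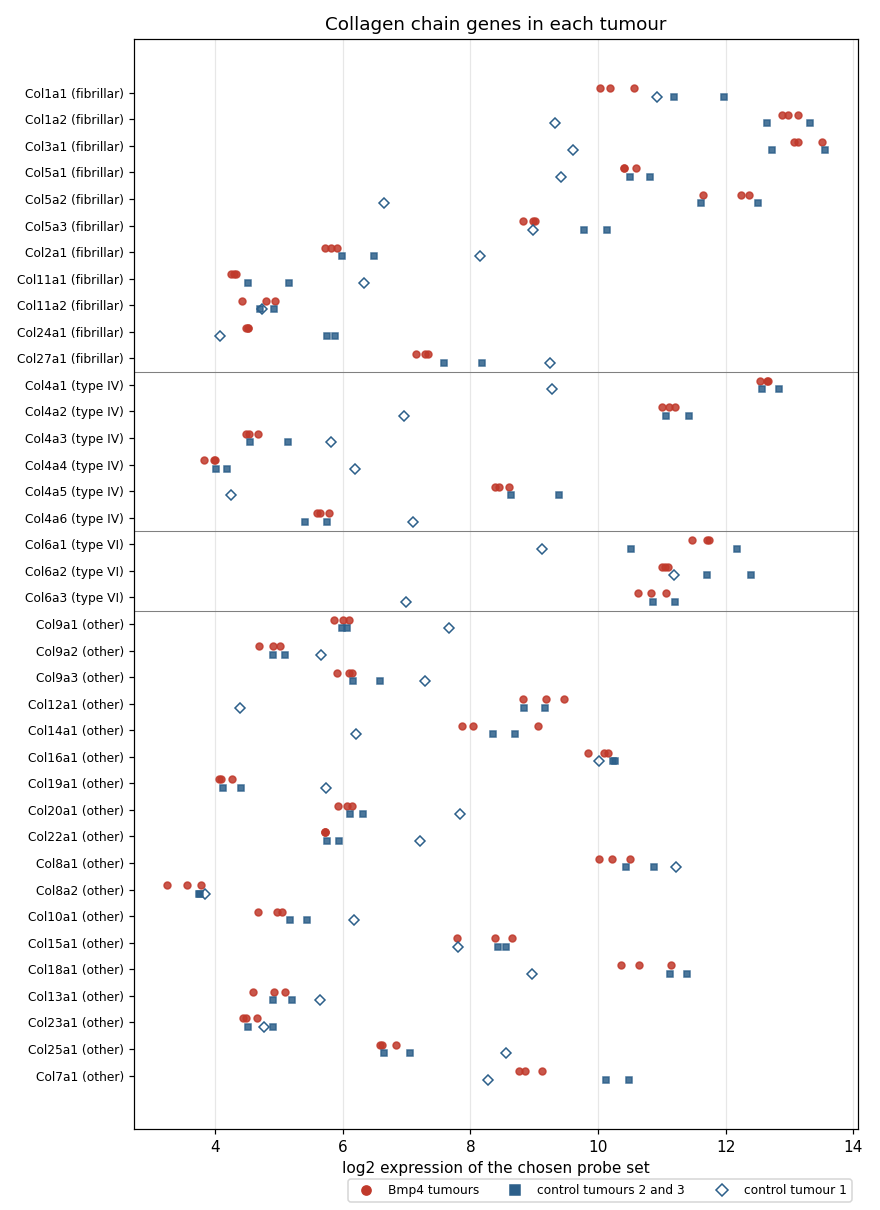
Log2 expression (x axis) of the probe set chosen for each of 38 collagen chain genes (rows, with the class in brackets) in each tumour. Red circles are the 3 Bmp4 tumours, blue squares control tumours 2 and 3, and the open diamond control tumour 1, which sits far to the left of the other tumours for Col5a2, Col4a2 and Col12a1 and to the right of them for Col2a1 and Col25a1.

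**Figure D2:**
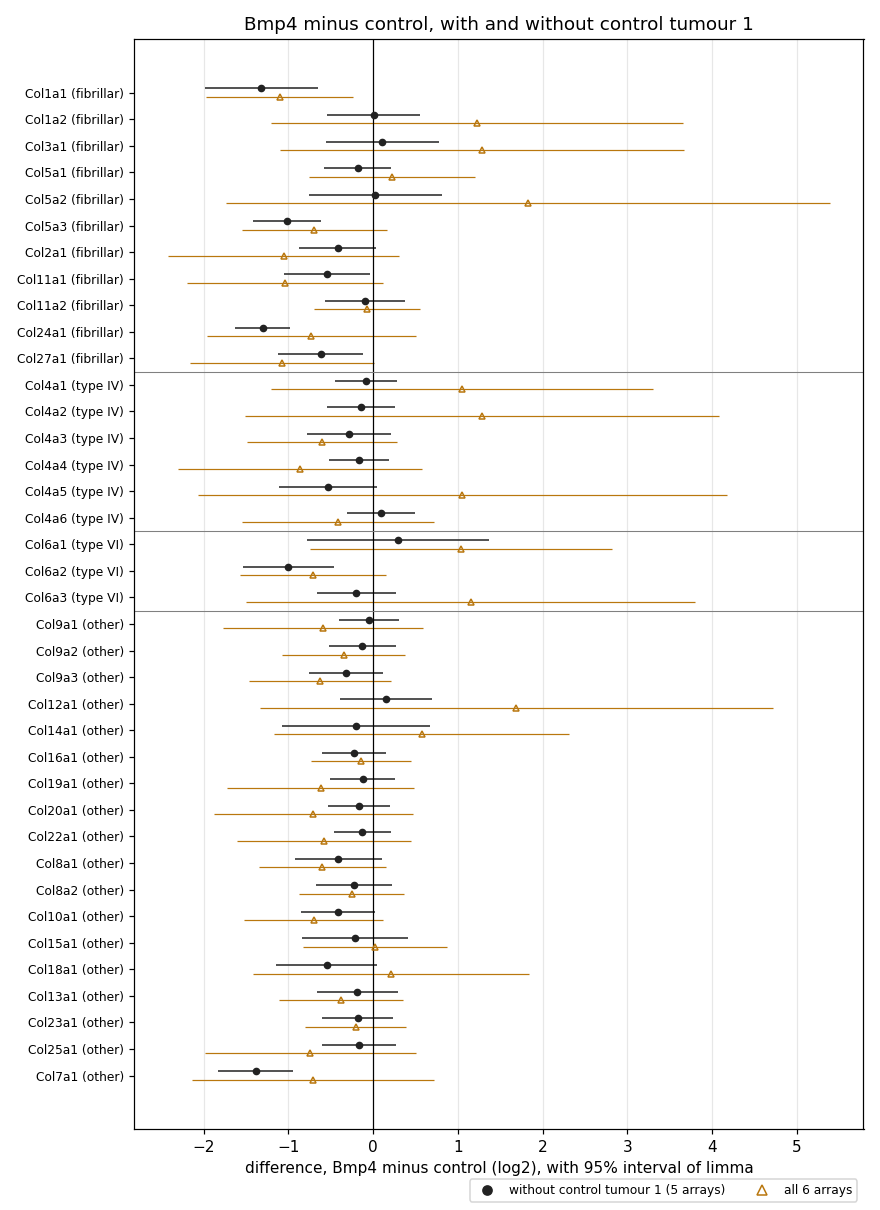
Difference of Bmp4 minus control in log2 units (x axis) with its 95% interval from limma for each of 38 collagen chain genes (rows). Black circles leave out control tumour 1 and lie left of 0 for 32 genes, and open orange triangles use all 6 arrays, with wider intervals, and lie left of 0 for 25 genes.

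Col24a1 and Col7a1 had the smallest p of the collagen genes without control tumour 1. Col24a1, a fibrillar chain known from developing bone and cornea, read 4.52, 4.49 and 4.51 in Bmp4 tumours 1, 2 and 3, against 4.08, 5.75 and 5.87 in control tumours 1, 2 and 3. The Bmp4 tumours lay close together, below control tumours 2 and 3 and above control tumour 1. The difference was -1.30 ± 0.14 (SE, limma adjusted p = 0.0947) without control tumour 1 and -0.73 ± 0.51 (SE, limma adjusted p = 0.496) with it. The values of this probe set are low ones, and that of control tumour 1 was under the 25th percentile of its array. Col7a1, whose chain forms the anchoring fibrils that fasten epithelial basement membrane to the tissue beneath, read 8.86, 9.12 and 8.76 in the Bmp4 tumours, against 8.28, 10.48 and 10.13 in the control tumours. It had the same order as Col24a1, with control tumour 1 lowest of all. Its difference was -1.39 ± 0.18 (SE, limma adjusted p = 0.147) without control tumour 1 and -0.71 ± 0.59 (SE, limma adjusted p = 0.499) with it.

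The promoter windows of these 2 genes are shown with that of Col1a2, whose difference was close to 0 without control tumour 1 (0.01), so that windows of genes with large and small differences can be read side by side. Each is the 250 bases before the annotated start in RefSeq on GRCm38.p6, in the direction of transcription: chr3:145292222-145292471 for Col24a1, chr9:108953336-108953585 for Col7a1 and chr6:4505368-4505617 for Col1a2, all on the plus strand. Capitals mark matches, on either strand, to 5 short motifs. The core promoter motifs searched were the CCAAT box (letters CCAAT) and a common form of the TATA box (letters TATAAA). Sp-family factors are known to bind the GC box, searched here with the letters GGGCGG. Of elements known to bind SMADs, the proteins that carry BMP and TGF-beta signals, CAGAC and the palindrome GGCGCC were searched. The GC box and the palindrome can share bases.
Col24a1: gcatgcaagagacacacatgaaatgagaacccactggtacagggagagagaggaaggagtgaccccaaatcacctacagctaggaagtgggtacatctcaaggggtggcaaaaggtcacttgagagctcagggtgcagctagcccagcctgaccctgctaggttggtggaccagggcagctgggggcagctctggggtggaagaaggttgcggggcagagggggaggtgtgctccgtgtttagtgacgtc
Col7a1: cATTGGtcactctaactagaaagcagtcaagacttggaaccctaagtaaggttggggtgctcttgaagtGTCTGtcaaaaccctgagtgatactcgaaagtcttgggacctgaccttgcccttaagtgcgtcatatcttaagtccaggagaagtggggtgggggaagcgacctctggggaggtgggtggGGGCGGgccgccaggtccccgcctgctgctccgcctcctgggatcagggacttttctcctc
Col1a2: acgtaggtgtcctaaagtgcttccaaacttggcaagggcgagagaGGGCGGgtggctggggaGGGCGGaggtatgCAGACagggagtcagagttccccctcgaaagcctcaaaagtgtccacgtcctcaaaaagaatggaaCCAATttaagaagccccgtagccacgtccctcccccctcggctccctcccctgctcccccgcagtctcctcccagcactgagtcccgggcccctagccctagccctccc
The Col24a1 window held 0 matches, the Col7a1 window 3 and the Col1a2 window 4. The windows of Col7a1 and Col1a2 each held a match to the CCAAT box, to CAGAC and to the GC box. Windows were found for 30 of the 38 collagen genes, 33 in all. The GC box occurred in 57.6% of these, against 32.7% of all 32851 RefSeq windows of that length. CAGAC occurred in 45.5% against 42.2%, the CCAAT box in 33.3% against 33.8%, the TATA box in 12.1% against 12.4%, and the palindrome in 12.1% against 9.59%. A match describes the letters alone and says nothing on binding. RefSeq places the starts of Col4a1 and Col4a2 only 21 bases apart on opposite strands.

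Among the fibrillar genes, those of the main stromal fibres gave unlike values. Col1a1 encodes the alpha 1 chain of type I collagen, which pairs with the alpha 2 chain from Col1a2. Col1a1 read 10.03, 10.56 and 10.18 in the Bmp4 tumours, against 10.92, 11.97 and 11.18 in control tumours 1, 2 and 3. All 3 Bmp4 values lay below all 3 control values, and the difference was -1.32 ± 0.28 (SE, limma adjusted p = 0.239) without control tumour 1 and -1.10 ± 0.36 (SE, limma adjusted p = 0.496) with it. Its other probe set, 1423669_at, read 8.68, 8.60 and 8.62 in the Bmp4 tumours, against 6.44, 9.31 and 8.27. There the Bmp4 values lay between those of control tumours 2 and 3, with differences of -0.15 without control tumour 1 and 0.63 with it. The 2 Col1a1 probe sets therefore disagree, and the lower reading of Col1a1 rests on 1455494_at.

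Col1a2 read 13.13, 12.88 and 12.97 in the Bmp4 tumours, against 9.32, 13.33 and 12.64 in the control tumours. Col3a1, the chain of type III collagen, which is laid down with type I in compliant tissue, read 13.51, 13.14 and 13.07 in the Bmp4 tumours, against 9.60, 13.55 and 12.72. In both genes the Bmp4 tumours lay between control tumours 2 and 3, and control tumour 1 lay more than 3 units below them. The differences without control tumour 1 were 0.01 for Col1a2, with a 95% interval of -0.54 to 0.55, and 0.11 for Col3a1, with an interval of -0.56 to 0.77. They were 1.23 ± 1.01 and 1.28 ± 0.99 (SE) with all 6 arrays, at limma adjusted p of 0.499 and 0.496.

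Type V collagen is built into type I fibrils and limits their diameter, and its chains come from Col5a1, Col5a2 and Col5a3. Col5a1 read 10.60, 10.40 and 10.41 in the Bmp4 tumours, against 9.42, 10.81 and 10.50 in the control tumours. Col5a2 read 12.37, 11.65 and 12.24 in the Bmp4 tumours, against 6.64, 12.51 and 11.61. Control tumour 1 was the lowest in both, and for Col5a2 it lay 5.42 below the mean of the other controls, the widest such gap among the collagen genes. Without it the differences were -0.18 for Col5a1 (95% interval -0.58 to 0.21) and 0.02 for Col5a2 (-0.76 to 0.81), and with it 0.23 and 1.83. Another Col5a1 probe set, 1434479_at, read 9.56, 9.59 and 9.46 in the Bmp4 tumours, against 7.498, 9.96 and 9.99 in the control tumours. It differed by -0.44 ± 0.13 (SE, limma adjusted p = 0.294 over all probe sets) without control tumour 1, with every Bmp4 value below control tumours 2 and 3, and by 0.38 with control tumour 1. The remaining one, 1416741_at, gave -0.02 and 0.24. Col5a3 read 8.82, 8.98 and 9.01 in the Bmp4 tumours, against 8.98, 10.13 and 9.78. On this chosen probe set the difference was -1.02 ± 0.17 (SE, limma adjusted p = 0.213) without control tumour 1 and -0.69 ± 0.35 (SE, limma adjusted p = 0.496) with it. A second Col5a3 probe set, 1425984_at, had a difference of -0.21 without control tumour 1, and was under the 25th percentile on 5 arrays.

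The cartilage fibrillar genes had mean signals below the median of all genes. Col2a1, the chain of cartilage type II collagen, read 5.92, 5.82 and 5.72 in the Bmp4 tumours, against 8.15, 6.48 and 6.00 in the control tumours. Col11a1, a chain of type XI collagen that nucleates cartilage fibrils, read 4.33, 4.29 and 4.25 in the Bmp4 tumours, against 6.33, 5.16 and 4.51. For both genes every Bmp4 value lay below every control value, and control tumour 1 was the highest. The differences were -0.42 ± 0.19 and -0.54 ± 0.21 (SE) without control tumour 1, with limma adjusted p of 0.356 and 0.324, and -1.06 and -1.04 with it. The other Col11a1 probe set, 1449154_at, differed by -0.03 without control tumour 1. Col11a2, a partner chain of type XI, differed by -0.10 and -0.07. Col27a1, a fibrillar chain of cartilage and its margins, read 7.34, 7.29 and 7.15 in the Bmp4 tumours, against 9.25, 8.18 and 7.58. Both of its probe sets were lower without control tumour 1, by -0.62 ± 0.21 (SE, limma adjusted p = 0.287) for the chosen one and -0.74 ± 0.25 (SE) for 1429549_at, and groups did not overlap for the chosen one in either comparison. Over the 11 fibrillar genes the median was -0.42 without control tumour 1, with 8 negative and 3 positive, and -0.69 with it, with 7 negative and 4 positive. The median with all 6 arrays was 0.04 over every probe set and 0.23 with the dimmer genes (below the 50th percentile of mean signal) left out.

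**Figure D3:**
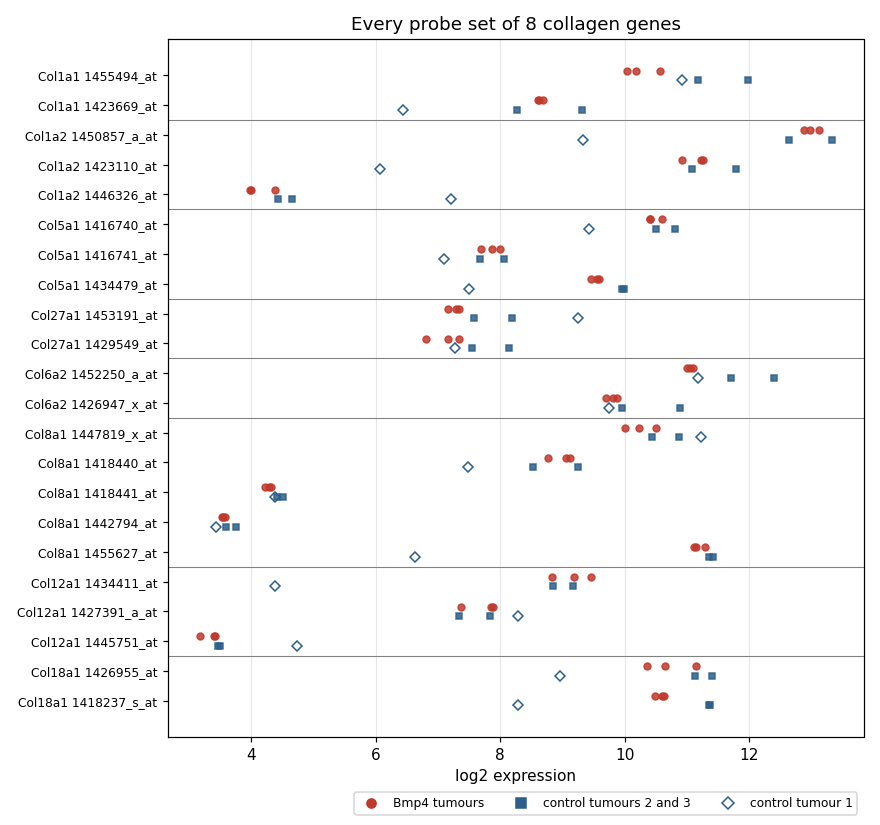
Log2 expression (x axis) of every probe set of Col1a1, Col1a2, Col5a1, Col27a1, Col6a2, Col8a1, Col12a1 and Col18a1 (rows) in each tumour, with red circles for the 3 Bmp4 tumours, blue squares for control tumours 2 and 3, and an open diamond for control tumour 1. The Bmp4 tumours lie left of the squares in both probe sets of Col27a1 and of Col6a2, but in 1 of the 2 probe sets of Col1a1.

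Among the type IV chains, Col4a1 and Col4a2, the chains of the type IV network found in nearly all basement membranes, were alike. Col4a1 read 12.64, 12.54 and 12.66 in the Bmp4 tumours, against 9.28, 12.83 and 12.57 in the control tumours. Col4a2 read 11.20, 11.0004 and 11.11 in the Bmp4 tumours, against 6.96, 11.42 and 11.06. Apart from control tumour 1, the tumours lay within a narrow range, and the differences were -0.09 (95% interval -0.45 to 0.28) and -0.14 (-0.55 to 0.26), against 1.05 and 1.29 with control tumour 1 included. Col4a5, a chain of a network that serves glomerular and some epithelial basement membranes, had the largest negative type IV difference, -0.53 (limma adjusted p = 0.357), with every Bmp4 value below control tumours 2 and 3, and 1.05 with control tumour 1. Its second probe set, 1425475_at, differed by 0.14 and 0.22. Col4a6, the partner of Col4a5 in part of that network, read 5.64, 5.78 and 5.59 in the Bmp4 tumours, against 7.10, 5.41 and 5.75. Its differences were 0.09 and -0.41, and its other probe set, 1421007_at, gave -0.09 and -0.21. Col4a3 and Col4a4, chains of the glomerular network, likewise had low signal and had 5-array differences of -0.29 and -0.17, and 6-array differences of -0.61 and -0.86. Every Bmp4 value of Col4a4 lay below every control value. The median over the 6 type IV genes was -0.16 without control tumour 1 and 0.32 with it.

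The 3 type VI chains, which assemble into 1 monomer, gave unlike differences. Col6a1 read 11.70, 11.47 and 11.73 in the Bmp4 tumours, against 9.12, 10.52 and 12.17 in the control tumours. Col6a2 read 10.999, 11.05 and 11.09 in the Bmp4 tumours, against 11.18, 11.70 and 12.40. Col6a3 read 11.06, 10.63 and 10.83 in the Bmp4 tumours, against 6.997, 11.21 and 10.86. Only for Col6a2 did every Bmp4 value lie below every control value, while control tumours 2 and 3 lay on either side of the Bmp4 tumours for Col6a1. The Col6a2 difference was -1.001 ± 0.22 (SE, limma adjusted p = 0.243) without control tumour 1 and -0.71 ± 0.36 (SE, limma adjusted p = 0.496) with it. Its second probe set, 1426947_x_at, whose suffix marks probes that may match other transcripts, gave -0.62 and -0.40. Col6a1 differed by 0.29 ± 0.45 (SE) and Col6a3 by -0.20 ± 0.19 (SE) without control tumour 1, and by 1.03 and 1.15 with it. The class median was -0.20 without control tumour 1 and 1.03 with it.

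Of the 18 other chains, 17 were negative without control tumour 1 and 14 with it, with medians of -0.20 and -0.48. Among the fibril-associated chains, Col12a1 and Col14a1, which sit on the surface of type I fibrils, had the widest spread. Col12a1 read 9.46, 8.83 and 9.18 in the Bmp4 tumours, against 4.39, 9.16 and 8.84 in the control tumours. Col14a1 read 9.06, 8.04 and 7.87 in the Bmp4 tumours, against 6.20, 8.70 and 8.35. Control tumour 1 was the lowest for both, and without it the groups overlapped. The differences were 0.15 (95% interval -0.39 to 0.69) and -0.20 (-1.07 to 0.67) without control tumour 1, and 1.69 and 0.57 with it. The other probe sets of Col12a1 gave 0.11 for 1427391_a_at and -0.16 for 1445751_at without control tumour 1, and -0.12 and -0.58 with it. For Col14a1, 1428455_at gave -0.05 and 1453931_at 0.02 without control tumour 1, and -0.02 and -0.45 with it. Col16a1 differed by -0.22 and -0.14, and its control tumour 1 value, 10.01, lay near the others. Col9a1, Col9a2, Col9a3, Col19a1, Col20a1 and Col22a1 differed by -0.33 to -0.04 without control tumour 1 and by -0.71 to -0.35 with it, and control tumour 1 was the highest array for all 6 on the probe sets chosen. Another Col9a3 probe set, 1460693_a_at, read 3.30, 3.33 and 3.14 in the Bmp4 tumours, against 3.39, 4.61 and 3.54 in the control tumours. It differed by -0.82 ± 0.31 (SE, limma adjusted p = 0.33 over all probe sets) without control tumour 1 and by -0.59 with it, without overlap of the groups in either. This probe set was under the 25th percentile on 5 arrays, all but that of control tumour 2, so its difference rests largely on that tumour. Other probe sets of Col19a1 and Col20a1 gave both signs without control tumour 1, the highest being 0.11 for 1456953_at of Col19a1.

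Col8a1, a short network-forming chain of vessel walls, was represented by 1447819_x_at, whose suffix marks probes that may match other transcripts. It read 10.22, 10.50 and 10.01 in the Bmp4 tumours, against 11.22, 10.87 and 10.43 in the control tumours. A further probe set, 1455627_at, read 11.14, 11.11 and 11.28 in the Bmp4 tumours, against 6.63, 11.41 and 11.35. Control tumour 1 was the highest array on the first of these and the lowest on the second. On each other array 1455627_at read above 1447819_x_at, so the choice between them rests on control tumour 1. Without it they differed by -0.41 and -0.20, and with it by -0.60 and 1.38. The 3 remaining Col8a1 probe sets gave 0.09 (1418440_at), -0.19 (1418441_at) and -0.12 (1442794_at) without control tumour 1. Col10a1, the network chain of hypertrophic cartilage, read 4.66, 5.05 and 4.97 in the Bmp4 tumours, against 6.17, 5.44 and 5.17. Every Bmp4 value lay below every control value, with differences of -0.41 ± 0.18 (SE, limma adjusted p = 0.351) without control tumour 1 and -0.70 with it. Col8a2, the partner of Col8a1, was under the 25th percentile on all 6 arrays. Col4a4 and Col19a1 were under it on 5 arrays, and 9 of the 38 collagen genes on 1 array or more.

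Col15a1 and Col18a1 encode multiplexins, chains of the zone around basement membranes, and a fragment of the Col18a1 chain is known as endostatin. Col15a1 read 7.80, 8.65 and 8.38 in the Bmp4 tumours, against 7.80, 8.42 and 8.55 in the control tumours, and differed by -0.21 (95% interval -0.84 to 0.41) without control tumour 1. Col18a1 read 11.14, 10.36 and 10.64 in the Bmp4 tumours, against 8.97, 11.39 and 11.13. Its second probe set, 1418237_s_at, read 10.63, 10.59 and 10.49 in the Bmp4 tumours, against 8.29, 11.36 and 11.35. On that probe set every Bmp4 value lay below control tumours 2 and 3, and above control tumour 1. Without control tumour 1 the differences were -0.55 ± 0.25 (SE, limma adjusted p = 0.361) and -0.79 ± 0.14 (SE, limma adjusted p = 0.237 over all probe sets), and with it 0.22 and 0.24. Of all probe sets with 1 symbol, fitted alone without control tumour 1, an unadjusted p under 0.05 was reached by 8.73% with higher and 5.54% with lower values. The transmembrane collagen genes Col13a1, Col23a1 and Col25a1 differed by -0.19 to -0.17 without control tumour 1 and by -0.74 to -0.20 with it.

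Where a gene had several probe sets (24 genes), all were negative for 14, all positive for 1 and of both signs for 9 without control tumour 1. These counts were 12, 6 and 6 with all 6 arrays. Col5a2 and Col1a2 were among the 9. Without control tumour 1, the second probe set of Col5a2, 1450625_at, gave -0.34, and 1423110_at and 1446326_at of Col1a2 gave -0.30 and -0.42. Dim probe sets entered these counts, and their signs say little on a gene. For example, 1449154_at of Col11a1, 1445751_at of Col12a1 and 1421698_a_at of Col19a1 were under the 25th percentile on all 6 arrays. The probe sets 1453931_at of Col14a1 and 1456953_at of Col19a1 were under it on 5 arrays, and 1446326_at of Col1a2 on 2.

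An analysis of variance by the authors was also deposited, with 1 ratio of Bmp4 over control per probe set. The log2 of that ratio had an r of 0.965 with the differences without control tumour 1 and of 0.749 with those of all 6 arrays. Of the 76 collagen probe sets, 65 had a ratio below 1 and 11 above it in the authors' deposited table, 7 were lower at p under 0.05 and 0 higher, and the lowest adjusted p was 0.523. Of all probe sets with 1 symbol, 5.05% were lower at that p and 4.52% higher in the authors' deposited table. Those 7 belonged to Col7a1, Col1a1, Col24a1, Col18a1, Col5a3, Col5a1 and Col19a1, and the authors' deposited table gave Col7a1 a ratio of 0.391, Col1a1 0.407 and Col24a1 0.445. For 1456953_at of Col19a1 the authors' deposited table gave a ratio of 0.893, whereas the deposited log2 values gave a difference of 0.11 without control tumour 1 and -0.60 with it.

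Control tumour 1 was the lowest array for 14 of the 38 collagen genes and the highest for 17, beside 38.2% and 47.7% of all genes. It was the lowest for 13 of the 21 collagen genes whose mean signal lay above 6.61 and the highest for 14 of the 17 below, beside 69.2% and 79.5% of all genes in those ranges. The plot of control tumour 1 shows this compression.

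**Figure D4:**
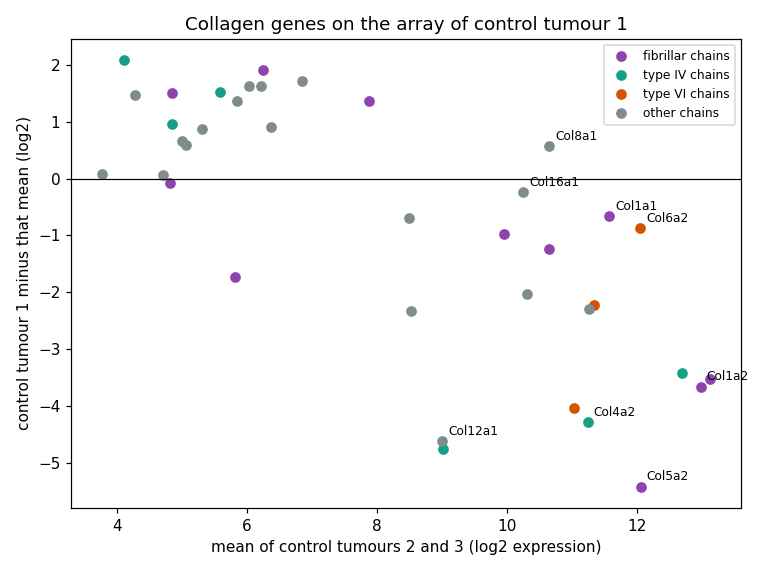
For each of 38 collagen chain genes, the log2 value on the array of control tumour 1 minus the mean of control tumours 2 and 3 (y axis) against that mean (x axis), coloured by class. Points on the left mostly lie above 0 and points on the right mostly below it, reaching -5.42 for Col5a2. Less far from 0 than Col5a2 lie Col1a1 (-0.66), Col6a2 (-0.86), Col16a1 (-0.24) and Col8a1 (0.57).

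A further 62 genes of collagen modification, folding, cleavage, cross-linking and binding, and of other basement membrane components, were measured. Without control tumour 1, 31 were positive and 31 negative, with a median of 0.00. At an unadjusted p under 0.05, 12 were higher and 6 lower, beside 9.07% and 5.67% of all genes, and 0 reached an adjusted p under 0.05. With control tumour 1 included, 40 were positive and 22 negative, with a median of 0.50, and an unadjusted p under 0.05 was reached by 6 genes in the higher direction and 0 in the lower, beside 3.74% and 1.16% of all genes, with 0 again at the adjusted threshold. P4ha1, the catalytic subunit that hydroxylates collagen prolines, read 11.28, 10.86 and 11.44 in the Bmp4 tumours, against 6.80, 10.22 and 10.17 in the control tumours. All Bmp4 values lay above all control values, and the difference was 1.001 ± 0.20 (SE, limma adjusted p = 0.23) without control tumour 1 and 2.13 with it. P4hb, the other subunit, differed by 0.45, whereas P4ha2, an alternative catalytic subunit, differed by -0.17 and the lysyl hydroxylase genes Plod1 and Plod2 by -0.30 and -0.29.

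Among chaperones and export factors, Mia3, which loads procollagen into transport vesicles, differed by 0.54 ± 0.14 (SE) and Hsp90b1, a chaperone of the endoplasmic reticulum, by 0.36. Serpinh1, the collagen-specific chaperone Hsp47, differed by -0.32, Fkbp10, a prolyl isomerase for collagen, by -0.71 and Sparc, a collagen-binding glycoprotein, by -0.27. The members of that list thus lay on both sides of 0. Of the genes for procollagen cleavage, Bmp1, the C-proteinase, differed by 0.92 and its enhancer Pcolce2 by 0.87, while the other enhancer, Pcolce, chosen after its values were seen, differed by -0.33, Adamts2, the N-proteinase, by -0.57 and the C-proteinase Tll1 by -0.57. Of the cross-linking oxidases, Loxl3 differed by 0.92, Lox by 0.21, Loxl1 by 0.14 and Loxl4 by -0.07, and Loxl2 was not analysed here. Of the collagen receptors, Ddr2, a receptor tyrosine kinase for fibrillar collagen, differed by 0.63 and the integrin subunit gene Itgb1 by 0.58, against -0.51 for Ddr1 and -0.42 for Mrc2, which takes up collagen. These differences leave out control tumour 1, and each had a limma adjusted p of at least 0.23. The Tll1 probe set was under the 25th percentile on 5 arrays, and that of Adamts2 on 0.

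Of the small proteoglycans on fibrils, Dcn differed by 0.22, Ogn by 0.72, Fmod by 1.12 ± 0.91 (SE), Bgn by -0.11 and Kera by -0.15. The Kera probe set was under the 25th percentile on 5 arrays. Of the other basement membrane genes, the laminin chain gene Lamb3 differed by 1.29 and Agrn, a heparan sulphate proteoglycan, by 0.58. The Lamb3 probe set was under the 25th percentile on 3 arrays, those of the control tumours. The laminin chain of vessels, Lama4, differed by -0.82, the linker Nid1 by -0.76 and the proteoglycan Hspg2 by -0.23. The differences of Nid1 and Lama4 were thus more negative than those of Col4a1 and Col4a2, and none of them passed the adjusted threshold. Among the named genes of these lists, the differences of P4ha2, Plod1, Plod2, Serpinh1, Pcolce, Ddr1, Bgn and Nid1 were negative without control tumour 1 and positive with it.

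Because these are whole tumours, fewer cells of a type and less RNA per cell cannot be told apart. No marker of the 8 cell type lists reached an adjusted p under 0.05 in limma in either comparison. The marker counts below are at an unadjusted p under 0.05 without control tumour 1, where 9.07% of all genes were higher and 5.67% lower. With all 6 arrays, 2 leukocyte markers were higher at that p and 0 other markers passed it. Of 8 endothelial markers, 5 were lower and 0 higher, with a median of -0.52 (0.07 with control tumour 1), and the list averaged 7.48 to 7.68 in the Bmp4 tumours, against 6.99, 7.75 and 8.06 in the control tumours. Of 10 fibroblast markers, 1 was lower (Pdgfrb, -0.89) and 1 higher (Fbln2, 0.57), and the list averaged 9.10 to 9.43 in the Bmp4 tumours, against 7.42, 9.29 and 9.07. Of 8 pericyte and smooth muscle markers, 2 were lower (Rgs5, -0.91, and Cnn1) and 1 higher, with list means of 7.49 to 7.58 against 7.27, 7.54 and 7.63. All 6 measured leukocyte markers were positive, 3 of them at that p, with list means of 9.35 to 9.94 in the Bmp4 tumours, against 7.23, 7.95 and 9.31.

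Of 8 carcinoma epithelial markers 1 was lower at that p (Cdh1, -1.25) and 0 higher, with list means of 7.72 to 7.96 in the Bmp4 tumours, against 7.71, 8.08 and 8.07. Of 7 measured cartilage and bone markers 1 was lower and 0 higher, 3 were under the 25th percentile on all 6 arrays, and the list had means of 4.96 to 5.27, against 5.61, 5.59 and 5.12. Of 7 measured adipocyte markers 1 was lower and 1 higher, and the list averaged 5.73 to 5.82 against 6.34, 5.75 and 5.70, while the 8 skeletal muscle markers, 0 of which passed that p, averaged 4.89 to 5.01 against 6.07, 5.06 and 4.82. In RNA quality, the 3' minus 5' reading of Actb was 1.44, 2.32 and 2.33 in the Bmp4 tumours, against 5.64, 4.18 and 2.62, and that of Gapdh was 1.62, 3.13 and 2.42 against 2.46, 5.31 and 3.93. The Actb readings of the Bmp4 tumours all lay below those of the control tumours. The 18 hybridisation control probe sets averaged 10.04, 10.04 and 10.30 in the Bmp4 tumours, against 13.01, 11.23 and 10.66, again without overlap. Control tumour 2, which stays when control tumour 1 is left out, had the highest Gapdh reading. After control tumour 1, it also had the highest Actb and hybridisation readings and the lowest interquartile range (3.36). The part of these cell markers and array measures in the collagen differences was not tested.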

How the data were processed

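RNA of 3 Bmp4 and 3 control tumours, grouped by label, was hybridised to 1 array each. The authors deposited log2 values of each probe set, made by RMA with Partek 6.6 according to the submitters' processing notes. The set of arrays normalized jointly, the annotation and the build are not given in the sources used here. A second deposited file, from the authors' analysis of variance, holds per probe set a ratio, a signed fold score, an F score and the p-value before and after adjustment, per the file headers.

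Of 45101 probe sets, 36859 carried a single symbol, which made 20401 genes once names were updated through RefSeq. For each gene the probe set brightest on average over all 6 arrays was kept, with no filter. Genes were fitted with limma 3.58.1 under R 4.3.3 (lmFit, eBayes, two-sided), p-values were adjusted by Benjamini-Hochberg over all genes, and calls needed an adjusted p under 0.05. The fit was run on 6 arrays and on 5 (no control tumour 1), and tested on simulated data with the means and spread of these genes. Noise in the simulation was independent between genes and equal in spread on every array. No simulated array therefore stood apart as control tumour 1 did. There, of rises of 1 and 2 log2 units, it called 0% and 20.4% with 6 arrays and 38% and 75.2% with 5. The absence of calls therefore does not show that a gene was unchanged. For 1 value in 3 tumours against 3, the lowest p an exact permutation test allows is 0.1. The 5-array comparison has fewer arrangements and allows none lower. The number of arrays limits the precision. Genes given tumour by tumour were the main chains of each class and the 4 smallest p per direction and fit. Members, lists and rules were chosen with earlier results of these data known.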

Additional observations from a re-analysis of the deposited data

How the results depend on the processing

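The alternatives below changed 1 choice each, except that the replicate block without control tumour 1 also sets Bmp4 tumour 1 aside. With all 6 arrays no collagen gene was called under any alternative. Without control tumour 1 those called are named here, apart from fits with a lone control. Without control tumour 1, Col24a1 was the 1 collagen gene called lower with the 75th percentile centring and with the trend and robust options. Leaving out 1 further tumour gave 0 to 4 such genes, and the 4 (Col1a1, Col5a3, Col24a1 and Col7a1) came without control replicate 3, which leaves control tumour 2 as the lone control, assumed to vary like the other group. Over all genes that range was 0 to 279 calls higher and 0 to 77 lower, with 0 higher in each omission but that of control replicate 3. With all 6 arrays it was 0 to 4 higher. Calls over all genes without control tumour 1 were 1 higher with median centring, against 4. Calls lower were 7 with the 75th percentile centring, 3 with every probe set, 1 with the genes below the 25th or the 50th percentile left out, 2 with probe sets averaged per gene, 1 with quantile normalization again and 2 with the trend and robust options, against 0.

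Once each gene's group mean was subtracted, same-numbered tumours correlated at -0.14, -0.25 and -0.037. Control tumour 1 enters each of these values through the control mean, so they cannot decide whether the numbers mark pairs. The main fit did not take the numbers as pairs. Without control tumour 1, the replicate block leaves Bmp4 tumour 1 with no same-numbered control, so that tumour does not enter the difference. The values of this fit therefore cannot separate pairing from the loss of that tumour. It gave 0 calls higher over all genes. The differences became -0.060 for Col1a2, -0.028 for Col3a1, -0.12 for Col5a2, -0.0008 for Col12a1 and 0.029 for Col15a1.

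The class medians with all 6 arrays depended on the choices. For the other chains the median was -0.78 with the 75th percentile centring, -0.30 with median centring, -0.38 with every probe set, -0.58 and -0.063 with genes below the 25th and the 50th percentile left out, and -0.37 with the mean of probe sets. For type IV it was -0.27 with every probe set, and 1.05 with either filter. For fibrillar chains it was 0.041 with every probe set, -0.24 with the mean of probe sets, -0.23 with the 25th percentile filter, -0.42 with quantile normalization again and 0.23 with the 50th percentile filter, which also gave 0.23 for all collagen genes. For type VI it was 0.32 with every probe set and 0.44 with quantile normalization again. Leaving out 1 tumour gave -0.20 to 1.73 for type VI and -0.54 to -0.20 for the other chains, and without control tumour 1 alone type VI was -0.20. In the 5-array comparison the 75th percentile centring gave -0.27 for type IV, -0.30 for all collagen genes and -0.31 for the other chains, median centring gave -0.087 for type IV, and the 50th percentile filter gave -0.19 for fibrillar chains. Leaving out 1 further tumour gave -0.24 to -0.035 for type IV, -0.54 to -0.091 for type VI, -0.33 to -0.099 for all collagen genes and -0.66 to -0.18 for fibrillar chains, with both ends of the last and of type IV coming from the omission of a control.

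Some differences turned sign, among them large ones with control tumour 1 included (Col4a1, Col4a2, Col6a3, Col8a1 and Col14a1). With all 6 arrays, the 75th percentile centring gave -0.074 for Col5a1, -0.28 for Col15a1 and -0.085 for Col18a1, quantile normalization again gave -0.37, -0.40 and -0.37 for these, and the mean of probe sets gave 0.23 for Col8a1. In the 5-array comparison, the 75th percentile centring gave -0.10 for Col1a2, -0.0041 for Col3a1, -0.086 for Col5a2 and -0.018 for Col4a6. The mean of probe sets gave -0.24 for Col1a2 and -0.16 for Col5a2, and quantile normalization again -0.057 and -0.056. With 1 of the 6 tumours left out, the ranges were -0.19 to 0.51 for Col5a1, -0.086 to 1.69 for Col4a1, -0.14 to 2.09 for Col4a2, -0.20 to 1.91 for Col6a3, -0.20 to 1.05 for Col14a1, -0.21 to 0.26 for Col15a1, -0.55 to 0.66 for Col18a1 and -0.75 to 0.093 for Col4a6. With 1 of the 5 left out they were -0.34 to 0.35 for Col1a2, -0.31 to 0.52 for Col3a1, -0.42 to 0.47 for Col5a2, -0.22 to 0.046 for Col4a1, -0.32 to 0.040 for Col4a2, -0.54 to 1.12 for Col6a1, -0.0071 to 0.32 for Col12a1, -0.57 to 0.021 for Col14a1, -0.40 to 0.029 for Col15a1 and -0.076 to 0.26 for Col4a6. Except for settings that leave out tumours or probe sets, the cause was not tested.

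The limits are few arrays, 1 of which stood apart, signal near background for several chains, probe sets that disagree within a gene, and RNA measures that differ between the groups.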
